A study of Canis lupus familiaris with 30 samples.

Results

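The genes described here are protein genes of the dog mitochondrial genome, each coding for a subunit of the respiratory chain or of the ATP synthase. The list held 9 members, taken by their symbols, and 6 of them could be tied to an Ensembl gene ID among the 32704 IDs of the expression table. These were MT-ND2 (ENSCAFG00000022717) and MT-ND4 (ENSCAFG00000022735) of complex I, MT-CYB (ENSCAFG00000022742) of complex III, MT-CO1 (ENSCAFG00000022723) and MT-CO2 (ENSCAFG00000022726) of complex IV, and MT-ATP6 (ENSCAFG00000022729) of complex V. MT-CO3, MT-ND1 and MT-ND5 were left out because no ID could be assigned to them from the sources used here. The IDs came from the study's test results on these samples, sorted by p-value. The 6 genes are therefore not a random draw of the mitochondrial genes. The only other mitochondrially encoded genes with an ID, both of complex I, MT-ND3 (ENSCAFG00000022732) and MT-ND6 (ENSCAFG00000022740), were measured beside the 6.

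RNA was sequenced from fine needle aspirates of enlarged lymph nodes of 15 dogs with canine lymphoma (cL). Each dog gave 1 sample at the six-week timepoint, 6 weeks into CHOP (cyclophosphamide, doxorubicin, vincristine and prednisone), and 1 at the initial timepoint before CHOP, which made 30 libraries. By the immunophenotype label there were 3 dogs with T-Cell lymphoma, 5 Unknown, which were not typed, and 7 with B-Cell lymphoma. A single prednisone injection before enrolment was permitted, no age or sex limit was set, and no untreated dog was sampled at the six-week timepoint, so that treatment and elapsed time cannot be told apart.

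Mitochondria carry their own small genome, which is present in many copies per cell and codes for a few core subunits of oxidative phosphorylation, while all other subunits come from the nucleus. Complex I takes electrons from NADH, complex III passes them on to cytochrome c, and complex IV hands them to oxygen. All of these pump protons, while complex II, which feeds in electrons from succinate, does not and is coded by the nucleus alone. The ATP synthase, complex V, uses the returning protons to make ATP. The mitochondrial genes are read from long transcripts that are cut into single RNAs, so that their amounts are set by transcription, processing and decay together. Mitochondrial messenger RNAs are usually among the most abundant polyadenylated RNAs of a cell.

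Levels are FPKM, fragments per kilobase of transcript scaled to the mapped fragments of the library, as deposited. Total read counts per library were 4318394 to 43413353, and the six-week libraries of dogs 036, 025 and 030 were the shallowest with 4318394, 6609226 and 6778831 counts. The total was lower at the six-week timepoint in 12 of 15 dogs, with a median six-week to initial ratio of 0.75. It was lower in 3 of 3 T-Cell dogs, with a median ratio of 0.49. Depth thus differed between the timepoints, and its part in their comparison was not tested. In 18 libraries of 9 dogs the deposited counts followed the FPKM of the same gene ID (Spearman rho across genes 0.88 to 0.983). In the 12 libraries of dogs 024, 027, 028, 029, 030 and 035 this correlation was 0.087 to 0.117. There MT-CO1 had 0 to 19 counts beside an FPKM of 3652 to 15326, whereas it had 14903 to 743911 counts in the other 18 libraries beside an FPKM of 2123 to 15187. FPKM were therefore used for all dogs, and counts only for the 9. The labels were compared with marker genes on the mean log2(FPKM+1) of a list. At the initial timepoint, the B-cell list (PAX5 and CD22, the 2 of 11 genes with an ID) was at 6.09 in dog 038, labelled T-Cell, against 0.73 and 1.74 in the other T-Cell dogs and 4.89 to 6.64 in the B-Cell dogs. The T-cell list (10 of 15 genes) was at 2.32 in dog 038. It was at 5.48 in dog 029, labelled B-Cell, against 1.19 to 2.94 in the other B-Cell dogs. The B-cell list of dog 029 was at 4.89, the lowest of the B-Cell dogs but far above T-Cell dogs 028 and 036. Dog 038 thus went against its label by these markers, and dog 029 stood high in both lists. The comparisons of the 6 genes by label are given with and without these 2 dogs. The marker values given here are those of initial samples only.

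Among the 6 genes the cytochrome c oxidase RNAs stood highest and the complex I RNAs lowest. MT-CO1, whose product holds the oxygen-binding centre of complex IV, was measured at 2123, 8878 and 15326 FPKM (lowest, median, highest) at the six-week timepoint and at 4105, 9152 and 11257 FPKM at the initial timepoint. For MT-CO2, whose product takes electrons from cytochrome c, the levels were 1511, 8903 and 13072 FPKM at the six-week timepoint and 3781, 9338 and 14509 FPKM at the initial timepoint. One of these genes was the highest of the 6 in every library, MT-CO1 in 16 and MT-CO2 in 14. MT-ATP6, part of the proton path of the ATP synthase, had levels of 1106, 3111 and 10230 FPKM at the six-week timepoint and 1561, 3624 and 9938 FPKM at the initial timepoint. MT-CYB, the cytochrome b of complex III, had 829.05, 1860 and 3264 FPKM at the six-week timepoint and 988, 2100 and 3290 FPKM at the initial timepoint. The timepoints overlapped for each of these genes, and for MT-CO1 and MT-ATP6 the initial range lay inside the six-week range. MT-ND2, a membrane subunit of complex I, was at 745, 1641 and 3459 FPKM at the six-week timepoint and at 763, 1536 and 2953 FPKM at the initial timepoint. MT-ND4, another membrane subunit of complex I, was at 685, 1522 and 2475 FPKM at the six-week timepoint and at 943, 1523 and 2566 FPKM at the initial timepoint. MT-ND2 was the lowest of the 6 in 14 libraries, MT-ND4 in 15 and MT-ATP6 in 1.

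**Figure D1:**
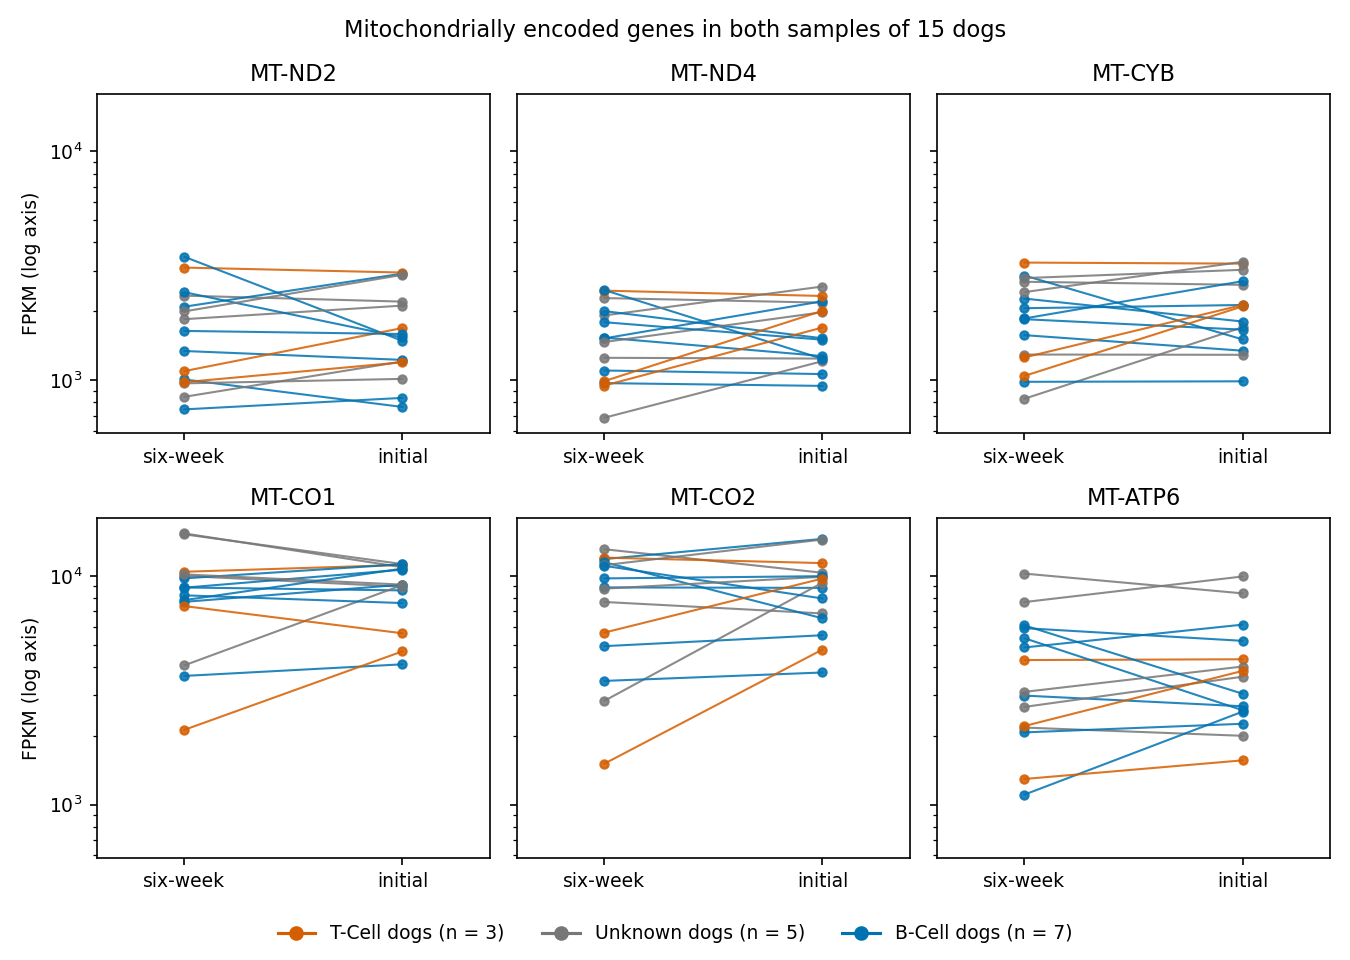
FPKM on a log axis for the 6 genes, with the six-week sample on the left and the initial sample on the right of each panel; each line joins the 2 samples of 1 dog and the color gives the immunophenotype label. In each library MT-CO1 or MT-CO2 is the highest of the 6, and the lowest six-week points of both belong to dog 036 (2123 and 1511 FPKM).

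Neighbours in this order were compared within dogs, over the mean log2(FPKM+1) of the 2 samples of a dog, by a two-sided exact permutation test of signs with Benjamini-Hochberg adjustment over 7 pairs. With MT-ND3 and MT-ND6 included, the order was MT-CO1, MT-CO2, MT-ATP6, MT-ND3, MT-CYB, MT-ND2, MT-ND4 and MT-ND6. It was taken from the means of the same 15 dogs that were then tested. The pairs and their direction were thus picked from the tested values, and the p-values are not independent support for the order. MT-CO1 and MT-CO2 did not differ beyond their spread over dogs, with a difference in level of 0.07 ± 0.33 on the log2 scale (SD, n = 15 dogs, exact p = 0.485, adjusted p = 0.566). MT-CO2 was above MT-ATP6 in 15 of 15 dogs and 30 of 30 libraries, by 1.13 ± 0.41 log2 (SD, n = 15, exact p = 6.1e-05, the smallest that 15 dogs allow, adjusted p = 0.000214). MT-ATP6 and MT-ND3 differed by 0.29 ± 0.54 log2 (SD, n = 15, exact p = 0.0583, adjusted p = 0.0816), and MT-ND3 was above MT-CYB in 15 of 15 dogs by 0.62 ± 0.31 log2 (adjusted p = 0.000214 by the same exact test). MT-CYB was above MT-ND2 in 13 of 15 dogs by 0.28 ± 0.25 log2 (exact permutation test, adjusted p = 0.00203). MT-ND2 and MT-ND4 were not told apart, at a difference of 0.03 ± 0.29 log2 (exact permutation test, adjusted p = 0.694). MT-ND4 was above MT-ND6, which lies on the opposite strand of the mitochondrial genome, in 13 of 15 dogs by 0.25 ± 0.22 log2 (exact permutation test, adjusted p = 0.00203). The mitochondrial ATP6 and ATP8 genes overlap, as do ND4 and ND4L, nuclear copies of mitochondrial sequence exist, and no strand setting is given in the sources used here, so that reads could be shared and the order holds for these FPKM values only.

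For each of the 6 genes the SD over dogs at a timepoint exceeded the SD within a dog. The SD over dogs also holds the spread within a dog. This order therefore does not show that dogs differed more than the samples of a dog did. On the log2(FPKM+1) scale the SD over dogs was 0.57 for MT-ND4 to 0.93 for MT-ATP6 at the six-week timepoint and 0.45 for MT-ND4 to 0.75 for MT-ATP6 at the initial timepoint, and the SD within a dog was 0.34 for MT-ND2 to 0.50 for MT-CO2. The SD over dogs was the larger one at the six-week timepoint for each of the 6 genes. For MT-CO2 it was 0.92 at the six-week timepoint and 0.55 at the initial timepoint. The 2 samples of a dog were correlated for each gene (Pearson r = 0.45 for MT-ND4 to 0.77 for MT-CO1 and MT-ATP6, over 15 dogs, a description).

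The first comparison asked how the 6 genes changed between the six-week and the initial timepoint. None of the 6 passed limma's test on log2(FPKM+1) with the dog as a block at a Benjamini-Hochberg adjusted p under 0.05, and neither did any of the 14257 genes tested, so that the background was 0% of genes higher and 0% lower. At an unadjusted p under 0.05, 1091 genes were higher and 732 lower, and none of the 6 was among them. The 6 estimates were all below 0, with a median of -0.13 log2, and the median of all genes tested was -0.0058. After rescaling to TPM these medians were -0.25 for the 6 genes and -0.09 for all genes, and after median-of-ratios scaling -0.06 and 0.05, with MT-ND2 above 0. The largest estimate was that of MT-CO2, -0.23 log2 (SE 0.21, 95% confidence interval -0.66 to 0.21, adjusted p = 0.667 by limma), and its level was lower at the six-week timepoint in 9 of 15 dogs. MT-CYB had an estimate of -0.15 log2 (interval -0.46 to 0.16), MT-CO1 one of -0.13 (-0.50 to 0.24) and MT-ND4 one of -0.13 (-0.44 to 0.19). The estimates of MT-ATP6 and MT-ND2 were nearest to 0, at -0.08 log2 (-0.43 to 0.28) and -0.02 log2 (-0.31 to 0.28). The intervals leave room for changes in either direction, and a p that misses the threshold does not show that the levels did not differ.

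In the counts of the 9 dogs, edgeR's quasi-likelihood test likewise called none of the 6 and 0 of 11690 genes (0% higher and 0% lower, with 899 higher and 797 lower at an unadjusted p under 0.05). Its estimates for the 6 genes were -0.40 log2 for MT-CO2 (SE 0.29) to -0.01 log2 for MT-ND2 (SE 0.19). DESeq2 called 474 genes higher (4.05% of genes tested) and 109 lower (0.932%) on the same counts, with none of the 6 among them (adjusted p = 0.424 for MT-CO2 and above that for the others). MT-CO1 had 3451, 12693 and 24489 CPM, counts scaled to a common library total (lowest, median, highest), in the 9 six-week libraries and 7596, 14616 and 18218 in the 9 initial libraries, and the lowest was again the six-week library of dog 036. Those of MT-ND2 were 925, 1203 and 2620 CPM at the six-week timepoint and 828, 1338 and 2315 at the initial timepoint. Each of the 6 genes had at least 4006 counts in each of these 18 libraries, so that counting error was small beside the spread over dogs.

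Single dogs differed more than the mean did. All 6 genes were higher at the six-week timepoint in 3 dogs (003, 024 and 030) and all 6 were lower in 3 dogs (025, 027 and 036), and the other 9 dogs were mixed. In dog 030 the ratio of the six-week to the initial FPKM was 1.08 to 2.33 over the 6 genes. In dog 025 it was 0.30 to 0.74 and in dog 036 it was 0.32 to 0.83. The pair of samples of dog 025 was the only one whose deviations from the group means had a negative correlation across genes (-0.11). The correlation was also low in dogs 036 (0.11) and 037 (0.14). In all 3 of these dogs the six-week sample correlated better with the initial sample of another dog (0.58 for 025, 0.27 for 036 and 0.37 for 037). Without dogs 025 and 036, an alternative chosen after the data were seen, the estimates of limma were -0.03 log2 for MT-ATP6 to 0.07 log2 for MT-ND2, and MT-CO2 was at -0.0040 (interval -0.35 to 0.34). MT-CYB, MT-ND4 and MT-ATP6 also stayed below 0, at -0.02, -0.02 and -0.03, so that most of the size of the negative estimates came with these 2 dogs, whose six-week libraries were the 2 shallowest. The estimates also differed between the sets of dogs defined by the counts. They were -0.45 log2 for MT-CO2 to -0.05 log2 for MT-ND2 in the FPKM of the 9 dogs with usable counts, and -0.10 log2 for MT-ATP6 to 0.11 log2 for MT-CO2 in the other 6 dogs. In size and in immunophenotype labels, the 9 dogs matched the paper's cluster group with longer progression-free survival and the other 6 its shorter one. The sample labels do not give the cluster group of a dog, so whether the sets hold the same dogs could not be checked. The difference between these sets was not tested.

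Marker lists differed between the samples of the same 2 dogs. In dog 025 the T-cell list was at 5.23 in the six-week sample against 1.68 in the initial sample, the macrophage and monocyte list (5 of 12 genes) at 4.89 against 1.94, the neutrophil list (3 of 8) at 5.77 against 1.54, and the cycling list (9 of 10) at 3.82 against 5.16. For dog 036 the B-cell list was at 4.25 in the six-week sample against 0.73 in the initial sample, the macrophage and monocyte list at 4.07 against 1.498, and the T-cell list at 4.45 against 6.28. Similar marker shifts were measured in dog 034, with the T-cell list at 5.33 against 2.94 and the neutrophil list at 4.57 against 1.49, while the ratio of six-week to initial FPKM of the 6 genes was 0.87 to 1.20 there. In dog 038, with the macrophage and monocyte list at 5.77 against 3.91, the neutrophil list at 5.40 against 2.91 and the stroma and endothelium list at 3.21 against 1.34, 5 of the 6 genes were lower at the six-week timepoint and the ratio was 0.49 to 1.32. Over all dogs the macrophage and monocyte list ranged from 1.19 to 5.77 at the six-week timepoint and from 1.39 to 4.09 at the initial timepoint, and none of its 5 genes was at 0 in any library. Of the red cell list (2 of 7 genes with an ID), SLC4A1 was at 0 in 4 six-week and 5 initial libraries. The part of cell composition and depth in these values was not tested. In a bulk aspirate, fewer cells of a type and less RNA per cell cannot be told apart.

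The second comparison set the T-Cell dogs against the B-Cell dogs. At the initial timepoint none of the 6 genes passed limma's test, beside 16 of 13565 genes higher (0.118%) and 33 lower (0.243%). At an unadjusted p under 0.05, 1369 genes were higher and 1682 lower, again without the 6. MT-ND4 had 2333, 1698 and 2009 FPKM in T-Cell dogs 028, 036 and 038, and 943, 1274 and 2212 FPKM (lowest, median, highest) in the 7 B-Cell dogs. All T-Cell values lay above the B-Cell median, but the groups overlapped, and the difference was 0.57 log2 (SE 0.31, interval -0.09 to 1.23, adjusted p = 0.285 by limma). MT-CYB had 3230, 2100 and 2131 FPKM in the T-Cell dogs and 988, 1662 and 2707 FPKM in the B-Cell dogs, a difference of 0.55 log2 (SE 0.36, adjusted p = 0.363 by limma). MT-CO1 had 11167, 4678 and 5611 FPKM in the T-Cell dogs and 4105, 9152 and 11246 FPKM in the B-Cell dogs, a difference of -0.35 log2 (SE 0.40, adjusted p = 0.623 by limma). Dog 028 was near the top of the B-Cell range for this gene and the other T-Cell dogs were in its lower part. MT-ND2 had 2953, 1689 and 1197 FPKM in the T-Cell dogs and 763, 1485 and 2922 FPKM in the B-Cell dogs, a difference of 0.42 log2 (interval -0.50 to 1.35). MT-CO2 had 11370, 4764 and 9735 FPKM in the T-Cell dogs and 3781, 7963 and 14509 FPKM in the B-Cell dogs, a difference of 0.10 log2 (interval -0.86 to 1.06). MT-ATP6 had 4319, 1561 and 3841 FPKM in the T-Cell dogs and 2256, 2691 and 6119 FPKM in the B-Cell dogs, a difference of -0.14 log2 (interval -1.22 to 0.95). Each of the 6 genes overlapped between the labels, and dog 036 had the lowest MT-ATP6 of all 10 typed dogs.

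Without dogs 029 and 038, limma's estimates at the initial timepoint were 0.48 log2 for MT-ND4, 0.53 for MT-CYB, 0.61 for MT-ND2, -0.41 for MT-CO1, -0.20 for MT-CO2 and -0.39 for MT-ATP6, with adjusted p of 0.356 (MT-ND4) to 0.805 (MT-CO2). The number of genes called over the whole table was 3495 without these 2 dogs, against 49 with them. The 2 dogs were set aside by T-cell and B-cell marker values of these same initial samples, and 2 T-Cell dogs were left. The higher number is therefore no independent support for leaving them out.

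At the six-week timepoint none of the 6 genes and none of 15346 genes passed between T-Cell and B-Cell dogs by limma (0% higher and 0% lower, with 477 higher and 794 lower at an unadjusted p under 0.05). MT-CO2 had 12012, 1511 and 5650 FPKM in T-Cell dogs 028, 036 and 038, and 3474, 9748 and 11841 FPKM (lowest, median, highest) in the B-Cell dogs. The T-Cell values spanned more than the whole B-Cell range, and the difference was -0.79 log2 (SE 0.66, interval -2.18 to 0.61, adjusted p = 0.738 by limma). MT-CO1 had 10421, 2123 and 7376 FPKM in the T-Cell dogs and 3652, 8221 and 9754 FPKM in the B-Cell dogs, and MT-ATP6 had 4284, 1294 and 2206 FPKM in the T-Cell dogs and 1106, 4864 and 6072 FPKM in the B-Cell dogs. Dog 036 was below every B-Cell dog for MT-CO1 and MT-CO2, and dog 028 was above every B-Cell dog for both. MT-CYB had 3264, 1044 and 1257 FPKM in the T-Cell dogs and 983, 1860 and 2866 FPKM in the B-Cell dogs. MT-ND2 had 3104, 1095 and 980 FPKM in the T-Cell dogs and 745, 1641 and 3459 FPKM in the B-Cell dogs, and MT-ND4 had 2461, 947 and 990 FPKM in the T-Cell dogs and 970, 1534 and 2475 FPKM in the B-Cell dogs. For MT-CYB, MT-ND2 and MT-ND4 dog 028 was high and dogs 036 and 038 were both below the B-Cell median. The 6 estimates were -0.79 to -0.12 log2, beside a median of -0.09 over all genes tested. Without dog 036 they were 0.22 for MT-CO1, 0.029 for MT-CO2, 0.14 for MT-CYB, 0.11 for MT-ND2, 0.004 for MT-ND4 and -0.19 for MT-ATP6. Leaving out dog 036 thus turned 5 of the 6 estimates, all but that of MT-ATP6. Leaving out dog 038 turned those of MT-ND2 (0.19) and MT-CYB (0.005). Without dogs 029 and 038 the estimates were -1.12 log2 for MT-CO2 to 0.0026 log2 for MT-ND2, with adjusted p of 0.626 (MT-CO2) to 0.999 (MT-ND2) by limma. These dogs were set aside by marker values of initial samples. In the six-week samples, T-Cell dog 036 had the B-cell list at 4.25 and the T-cell list at 4.45. B-Cell dog 034 had them at 4.30 and 5.33. Both of these dogs were kept, so that the labels were not cleared of mixed six-week samples.

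The third comparison asked whether the change over 6 weeks differed between T-Cell and B-Cell dogs. No gene passed limma's test of this difference, neither among the 6 nor among the 14257 tested (0% higher and 0% lower, with 1034 higher and 1153 lower at an unadjusted p under 0.05). MT-ND4 came nearest, with a difference in change of -0.80 log2 (SE 0.36, interval -1.57 to -0.04, unadjusted p = 0.0398, adjusted p = 0.308 by limma). Its FPKM was 2461 at the six-week and 2333 at the initial timepoint in T-Cell dog 028, 947 against 1698 in dog 036 and 990 against 2009 in dog 038. In the B-Cell dogs it was higher at the six-week timepoint in 6 of 7, with six-week to initial ratios of 0.69 to 1.998. The T-Cell dogs therefore did not move one way. MT-CO2 had a difference in change of -0.89 log2 (interval -2.03 to 0.26), MT-CYB one of -0.73 (-1.52 to 0.05), MT-ND2 one of -0.54 (-1.30 to 0.22), MT-ATP6 one of -0.46 (-1.45 to 0.53) and MT-CO1 one of -0.11 (-1.16 to 0.93). The median of all genes was -0.08. Leaving out dog 028 gave MT-ND4 -1.14 log2 with an adjusted p of 0.0978 by limma and 613 called genes over the whole table, still without the 6, and leaving out dog 036 gave MT-CO1 a difference of 0.32. Without dogs 029 and 038 the differences were -0.92 log2 for MT-CO2, -0.67 for MT-CYB, -0.62 for MT-ND4, -0.60 for MT-ND2, -0.46 for MT-ATP6 and -0.45 for MT-CO1, with an adjusted p of 0.495 (MT-CYB) to 0.723 (MT-CO1) by limma. In the same comparison of all dogs the macrophage and monocyte list had 5 of 5 estimates above 0 (median 1.71 log2) and the T-cell list 10 of 10 below 0 (median -0.63), none of them past the test. Without dog 036 the T-cell list had 6 estimates above 0 and 4 below (median 0.03) and the macrophage and monocyte list still had 5 of 5 above 0 (median 1.57). The part of these cells in the result was not tested.

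**Figure D2:**
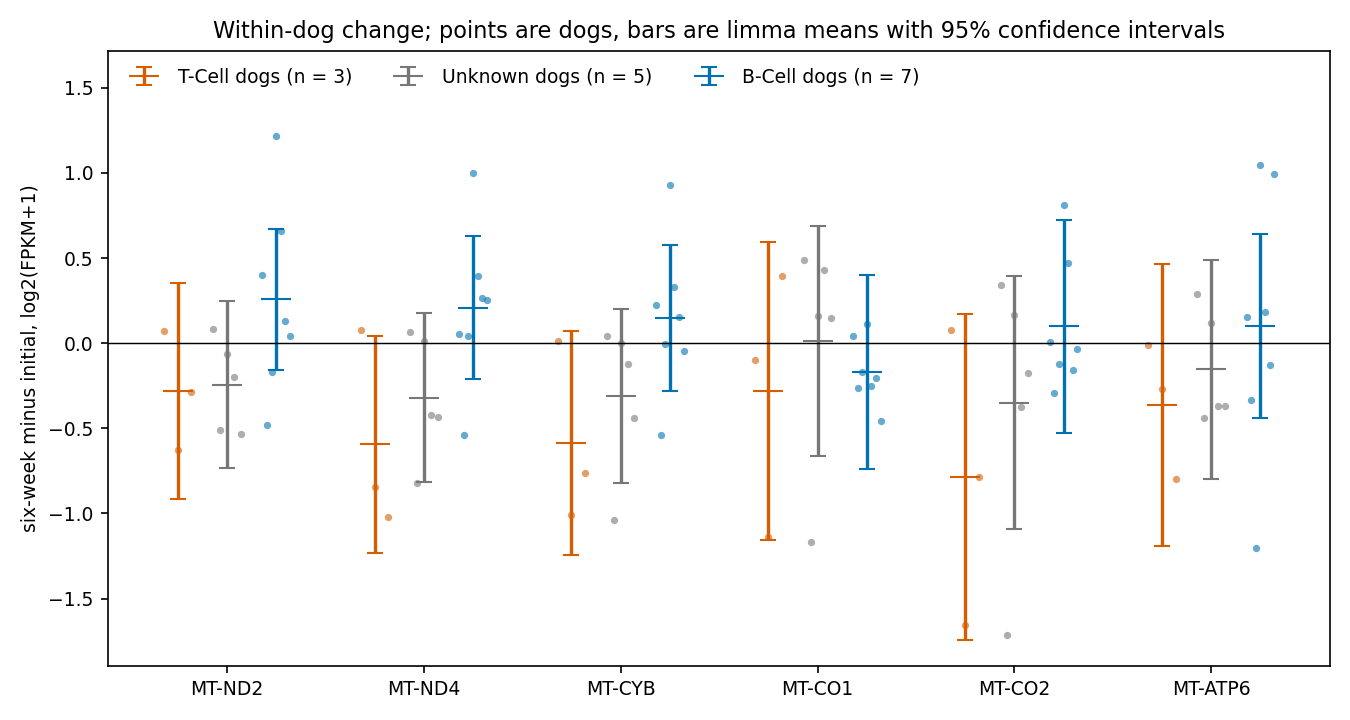
Within-dog change of the 6 genes, six-week minus initial log2(FPKM+1), by immunophenotype label; points are dogs, horizontal marks are the means fitted by limma, and bars are their 95% confidence intervals. All intervals cross 0, the T-Cell means lie between -0.79 (MT-CO2) and -0.28 (MT-ND2 and MT-CO1), and the B-Cell means between -0.17 (MT-CO1) and 0.26 (MT-ND2).

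Within the label groups the mean change of the 6 genes was -0.79 to -0.28 log2 in T-Cell dogs, -0.35 to 0.01 in Unknown dogs and -0.17 to 0.26 in B-Cell dogs. All 95% confidence intervals of these means included 0. Without dogs 029 and 038 the means were -0.79 (MT-CO2) to -0.14 (MT-ATP6) in the 2 T-Cell dogs left and -0.17 (MT-CO1) to 0.33 (MT-ND2) in the 6 B-Cell dogs. In the T-Cell dogs the 5 genes of the macrophage and monocyte list had estimates of 1.39 to 2.21 log2 (adjusted p = 0.122 for C1QA and AIF1 to 0.183 for CSF1R by limma), and the list mean was 2.42 to 5.77 at the six-week timepoint and 1.39 to 3.91 at the initial timepoint. The part of these cells in the estimates of the mitochondrial genes was not tested.

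The RNA of these complex IV genes beside that of complex I genes was described by the FPKM of MT-CO1 and MT-CO2 over that of MT-ND2 and MT-ND4. MT-ND3 of complex I, which stood above MT-ND2 and MT-ND4 in mean level, was not part of it. The values depend on this choice of genes and do not measure the amounts of the complexes. The ratio was 1.78, 5.12 and 8.44 (lowest, median, highest) at the six-week timepoint and 2.79, 5.19 and 9.58 at the initial timepoint. In dog 036 it was the lowest at both timepoints, at 1.78 in the six-week and 2.79 in the initial sample. It was lower at the six-week timepoint in 2 of 3 T-Cell dogs and in 6 of 7 B-Cell dogs, and higher in 4 of 5 Unknown dogs. Dog 029 was among the B-Cell dogs with a lower ratio (4.15 at the six-week against 4.43 at the initial timepoint) and 038 was the T-Cell dog with a higher one (6.61 against 4.79). The median was 4.03 in T-Cell, 6.14 in Unknown and 5.11 in B-Cell dogs at the six-week timepoint, and 4.26 in T-Cell, 5.48 in Unknown and 5.59 in B-Cell dogs at the initial timepoint, with overlapping ranges. Without dogs 029 and 038 it was 2.91 in T-Cell and 5.12 in B-Cell dogs at the six-week timepoint, and 3.53 in T-Cell and 6.15 in B-Cell dogs at the initial timepoint. The 2 T-Cell dogs left (2.79 and 4.26) then lay below the B-Cell dogs (4.90 to 9.58) at the initial timepoint. At the six-week timepoint the labels still overlapped (1.78 and 4.03 against 3.32 to 8.44). Dogs 029 and 038 were set aside after the data were seen. In the 12 libraries whose counts do not follow the FPKM the ratio was 3.32 to 6.14, and in the other 18 it was 1.78 to 9.58. No test was made of this ratio. MT-CO1 over MT-CO2, both of complex IV, varied from 0.58 in the initial sample of dog 038 to 2.04 in the initial sample of dog 034.

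**Figure D3:**
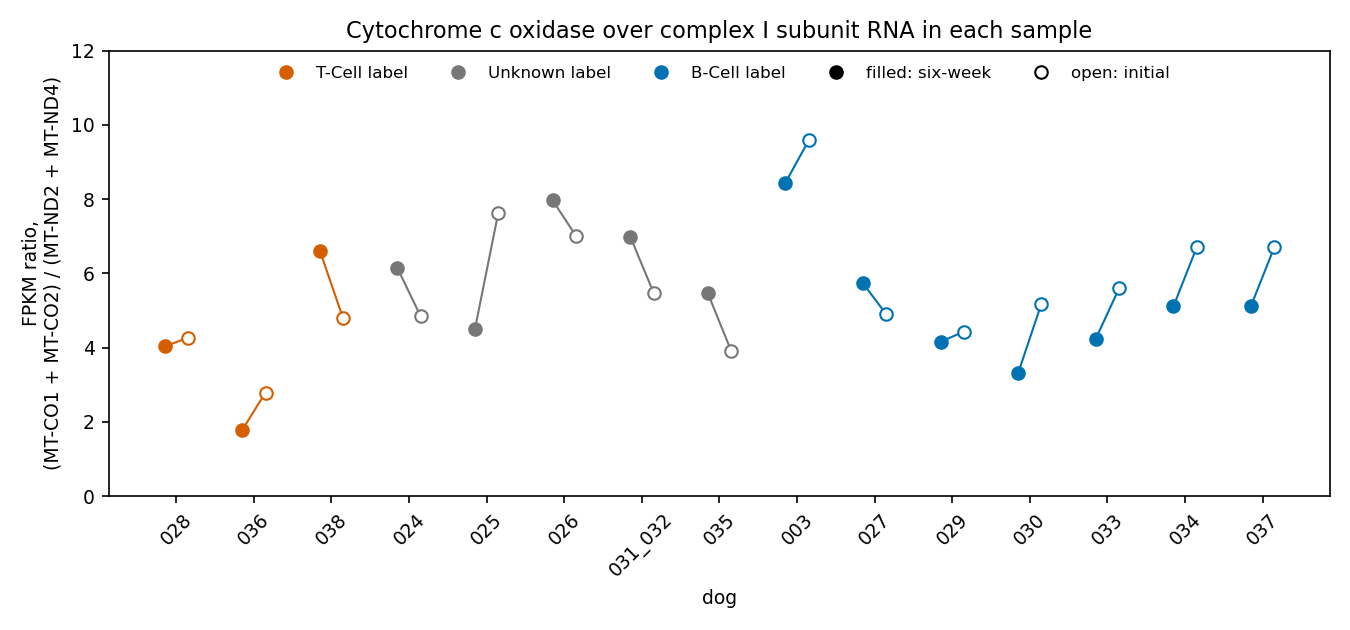
Ratio of the summed FPKM of MT-CO1 and MT-CO2 to that of MT-ND2 and MT-ND4 in each dog, with filled points for six-week and open points for initial samples and the label as color. Dog 003 has the highest ratios (8.44 and 9.58) and dog 036 the lowest (1.78 and 2.79), and the points of each label overlap those of the others.

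Together the 6 genes made up 0.52% to 4.71% of the FPKM sum of a library. The share was 0.52%, 2.74% and 4.71% (lowest, median, highest) at the six-week timepoint and 1.31%, 2.43% and 4.30% at the initial timepoint. It was lower at the six-week timepoint in 11 of 15 dogs, with a median within-dog difference of -0.36 percentage points (SD 0.87, range -1.59 to 1.62). This is a description without a test. The share depends on the FPKM sum, which was 769269 to 2253170 over the libraries and highest in the six-week library of dog 033. There 1 gene ID without a symbol, ENSCAFG00000026245, held 342844 FPKM, and the share of the 6 genes was 1.39% at the six-week against 2.28% at the initial timepoint although 5 of the 6 genes had higher FPKM at the six-week timepoint. In read counts of the same dog the share was 3.25% at the six-week and 3.00% at the initial timepoint. Over the 18 libraries with usable counts the share of reads was 0.93% to 4.60%, with medians of 2.74% at the six-week and 2.88% at the initial timepoint. In these 9 dogs the share was lower at the six-week timepoint in 7 by FPKM and in 5 by counts, and the 2 measures went opposite ways in 4 (003, 031_032, 033 and 037).

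**Figure D4:**
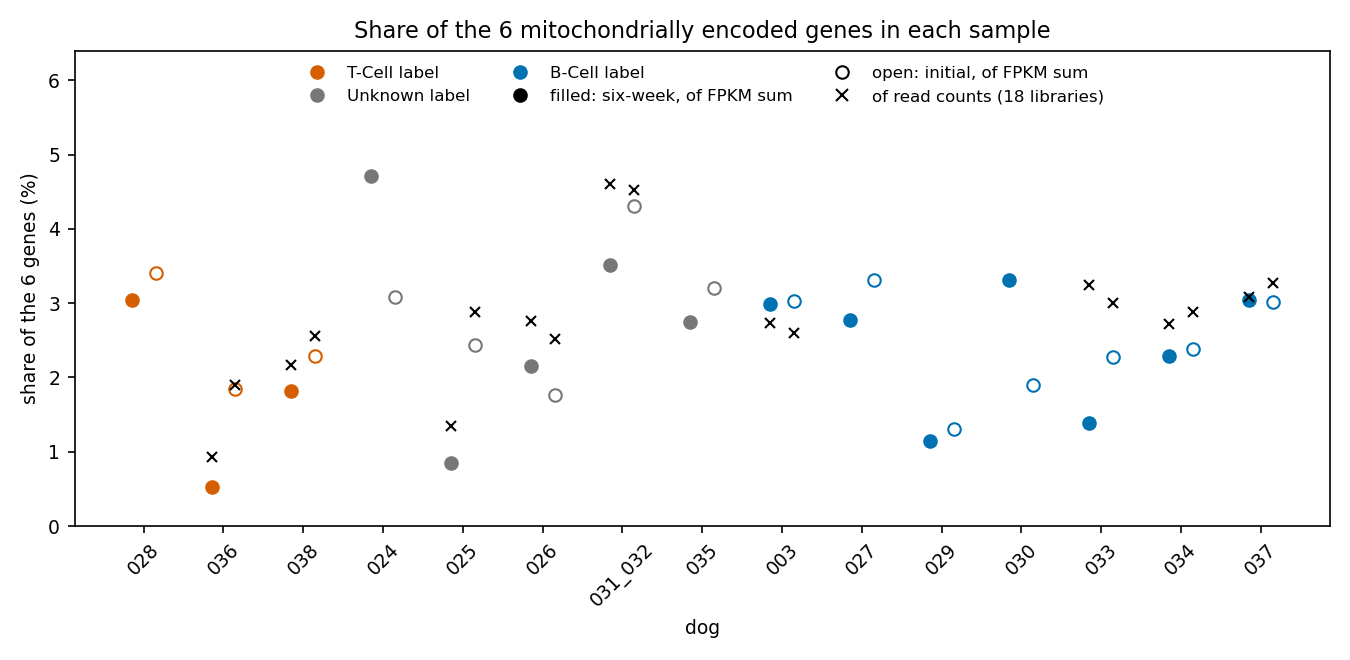
Percent of the library's FPKM sum held by the 6 genes in the six-week (filled) and initial (open) sample of each dog, colored by label, with crosses for the percent of read counts in the 18 libraries whose counts follow the FPKM. The share is lowest in the six-week sample of dog 036 (0.52%) and highest in that of dog 024 (4.71%), and the FPKM and count shares move in opposite directions in 4 of 9 dogs (003, 031_032, 033 and 037).

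The 6 genes did not vary as 1 unit. Over the 30 libraries, 2 per dog, the log2(FPKM+1) levels of MT-CYB and MT-ND4 had a Pearson correlation of 0.95, those of MT-CYB and MT-ND2 0.91, and those of MT-ND2 and MT-ND4 0.88. The complex IV genes MT-CO1 and MT-CO2 had 0.83, while MT-CO1 had 0.51 with MT-ND2 and 0.59 with MT-ND4. In the within-dog changes of 15 dogs, MT-CYB and MT-ND4 had 0.95 and MT-CYB and MT-CO2 0.92, against 0.06 for MT-CO1 and MT-ATP6. These values are descriptions, since genes of a library share its depth and its FPKM scale. They also differed between the sets of dogs: MT-CO1 and MT-ND2 had 0.28 over the 18 libraries with usable counts and 0.84 over the other 12.

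**Figure D5:**
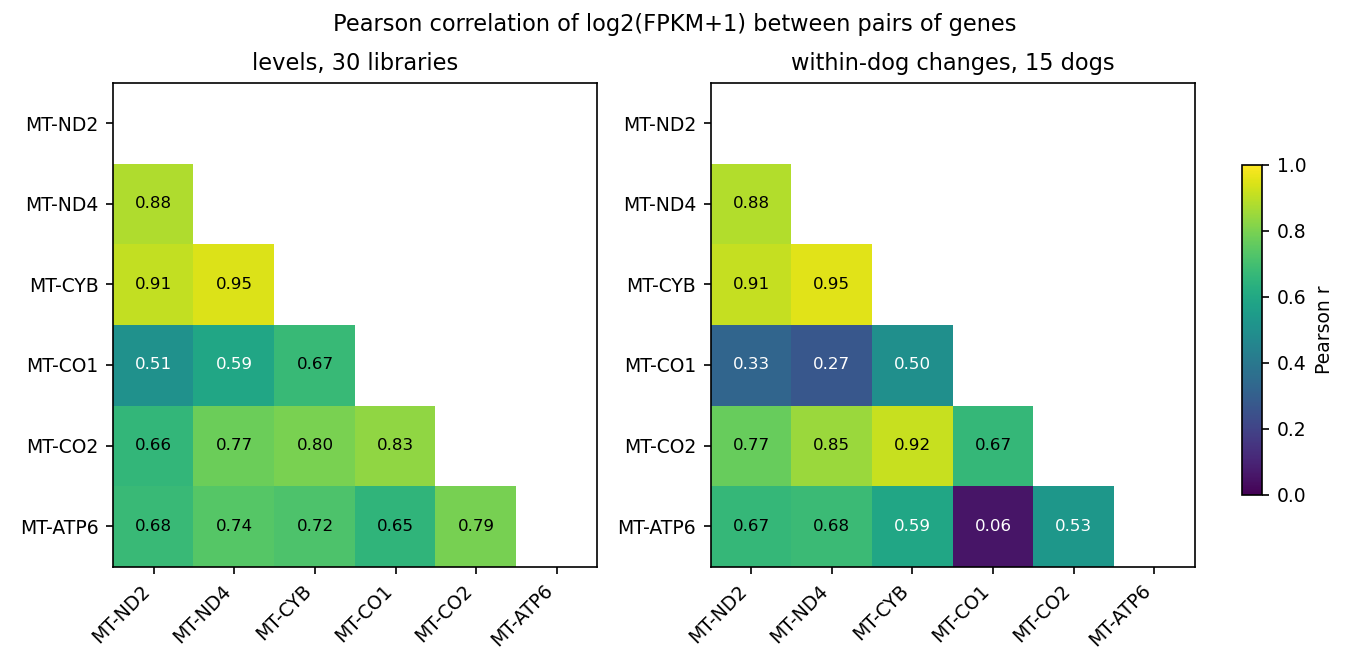
Pearson correlation of log2(FPKM+1) between pairs of the 6 genes, over 30 libraries (left) and over the within-dog changes of 15 dogs (right), on a color scale from 0 to 1. MT-ND2, MT-ND4 and MT-CYB form the brightest block in both panels (0.88 to 0.95), and MT-CO1 with MT-ATP6 is the darkest cell on the right (0.06).

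The remaining mitochondrially encoded genes with an ID behaved like the 6 in that neither passed a test. MT-ND3, a small membrane subunit of complex I, was at 1388, 3063 and 5565 FPKM at the six-week timepoint and at 1404, 3054 and 5639 FPKM at the initial timepoint. MT-ND6, also of complex I, was at 791, 1182 and 2402 FPKM at the six-week timepoint and at 734, 1253 and 2272 FPKM at the initial timepoint. Their changes were -0.08 log2 (interval -0.36 to 0.20) and -0.01 log2 (-0.25 to 0.23) by limma. Between T-Cell and B-Cell dogs their estimates were 0.23 and 0.43 log2 at the initial timepoint, with adjusted p of 0.757 and 0.423 by limma. Without dogs 029 and 038 these estimates were 0.13 for MT-ND3 and 0.49 for MT-ND6.

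Nuclear genes of the same complexes were examined from lists of which 28 genes had an ID, 12 of complex I, 2 of complex II, 5 of complex III, 3 of complex IV and 6 of complex V. At the six-week against the initial timepoint, 27 of the 28 estimates were below 0 by limma and none passed. In the FPKM of the 9 dogs with usable counts 28 of 28 were below 0, and in the other 6 dogs 24 of 28 were above 0, with list medians of 0.04 to 0.16 log2. The difference between these sets of dogs was not tested. The medians were -0.15 log2 for complex I, -0.18 for complex II, -0.34 for complex III, -0.29 for complex IV and -0.25 for complex V, beside -0.13 for the 6 mitochondrially encoded genes and -0.0058 over all genes. The largest were NDUFB6 of complex I at -0.39 log2 (adjusted p = 0.362 by limma) and CYC1, the cytochrome c1 of complex III, at -0.39 log2 (adjusted p = 0.307), neither past the test. In the counts of the 9 dogs DESeq2 called 2 of the 28, both lower, beside 0.932% of all genes. These were COX4I1, a nuclear subunit of complex IV, at -0.50 log2 (SE 0.13, adjusted p = 0.00674) and UQCRC2, a core subunit of complex III, at -0.50 log2 (SE 0.15, adjusted p = 0.0295). edgeR called none of the 28 on the same counts. Symbols were known only for 5086 gene IDs, from tables sorted by p-value, so that the nuclear genes with an ID are not a random draw of their complexes. Those tables include the study's own six-week against initial tests on counts of these samples. The list of genes for mitochondrial gene expression (7 of 32 with an ID) had a median of -0.13 log2 and none passed by limma. The largest estimates there were those of FASTKD3 (-0.19 log2) and of the RNA helicase SUPV3L1 (-0.17 log2).

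The cycling list had 9 of 9 estimates below 0 over time (median -0.50 log2), none past limma's test. The median was -0.82 in the FPKM of the 9 dogs with usable counts, with 9 of 9 below 0, and 0.02 in the other 6 dogs, with 5 above and 4 below 0. DESeq2 called 6 of the 9 lower in the counts of the 9 dogs, beside 0.932% of all genes. The largest were TOP2A, a topoisomerase of dividing cells, at -0.98 log2 (adjusted p = 0.0426), CENPF, a kinetochore protein, at -0.97 log2 (adjusted p = 0.0197) and UHRF1, which maintains DNA methylation, at -0.92 log2 (adjusted p = 0.0025). Of the T-cell list 10 of 10 estimates were above 0 by limma (median 0.70 log2, none past the test), and DESeq2 called 3 of 10 higher in the counts of the 9 dogs, beside 4.05% of all genes. The macrophage and monocyte list had 5 of 5 above 0 (median 0.74, none past limma's test), and DESeq2 called AIF1 higher. DESeq2 also called 2 of 3 genes of the neutrophil list, 3 of 6 of the stroma and endothelium list and 2 of 2 of the platelet list higher, beside the same 4.05%, with no gene of these lists called by limma or edgeR. The genes of all these lists got their IDs from the study's tables of these samples, sorted by p-value. They are therefore not a random draw of their lists. Those tables include the study's own six-week against initial tests on counts of these samples. The share of a list called by DESeq2 is thus no independent result beside the share over all genes. The B-cell list had both estimates below 0 (median -0.29) and AHSP, the 1 red cell gene tested, was at 0.44 log2, none called by any of the 3 tools. The part of cell composition in the values of the mitochondrial genes was not tested.

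Across the 30 libraries the mean log2(FPKM+1) of the 6 genes had a Pearson correlation of 0.63 with the cycling list, 0.54 with nuclear complex I, 0.60 with nuclear complex IV, -0.46 with the T-cell list, -0.52 with the stroma and endothelium list (6 of 10 genes) and 0.51 with the total count. As Spearman's rho, the value for the cycling list was 0.52 over the 30 libraries, 0.26 over the 18 with usable counts and 0.41 over the other 12. For nuclear complex I it was 0.42 over 30, 0.25 over 18 and 0.50 over 12, and for the stroma and endothelium list -0.25 over 30, -0.15 over 18 and -0.65 over 12. All of these points come in pairs from 15 dogs and share depth and scale with the 6 genes. With MT-ND3 and MT-ND6 the correlation was 0.89. Of 2356 genes with a symbol and a mean FPKM above 10, those most like the 6 genes over the 30 libraries were POLR1D, a subunit of RNA polymerases I and III (r = 0.73), MRRF, a mitochondrial ribosome recycling factor (0.72), CENPF (0.72), BLM, a DNA helicase (0.72), and CKAP2, a spindle protein (0.72). The least like were UBE2Q2, a ubiquitin-conjugating enzyme (-0.81), ZNF25, a zinc finger protein (-0.73), CSTA, a cystatin (-0.72), PPM1B, a protein phosphatase (-0.71), and NAPEPLD, a phospholipase (-0.71). The correlation of POLR1D was 0.62 over the 18 libraries with usable counts and 0.86 over the other 12, that of CENPF 0.47 and 0.87, and that of UBE2Q2 -0.71 and -0.88.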

How the data were processed

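RNA-seq libraries of 15 dogs at 2 timepoints were analysed from 2 tables. The submitters' processing notes name HISAT2 2.1.0 for alignment, StringTie 1.3.3 for transcript levels and the CanFam3.1 build, and the methods name poly-A RNA. FPKM values were deposited by the authors per gene ID, scaled by transcript length and depth and not logged. Read counts were deposited by the authors as unscaled whole numbers. Because counts of 12 libraries did not follow the FPKM of their gene IDs (Spearman correlation under 0.8), FPKM were the main values, whereas the study tested counts with DESeq2.

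Gene symbols were paired with Ensembl IDs through the study's supplementary tables, which name 5086 of 32704 IDs. No position or sequence is given, as no genome was used here. Members, lists and tests were chosen with earlier results of these data known. The genes named were the members with an ID, MT-ND3 and MT-ND6, the 5 most and 5 least correlated named genes with a mean FPKM above 10, and from each list up to 3 genes past the test or else the 2 with the largest change. Names given beyond this rule were chosen after their values were seen.

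Values were log2(FPKM+1) of genes with a mean FPKM above 1, fitted with limma 3.58.1 (trended variance) in R 4.3.3, with Benjamini-Hochberg adjustment at 0.05 over all genes tested. Timepoints were compared with the dog as a block, labels within a timepoint over dogs with all 3 labels in the fit, and the difference in change on within-dog differences. Counts of 9 dogs with a mean scaled count above 50 were tested with edgeR 4.0.16 and DESeq2 1.42.0. The fits were tested on simulated data. Python 3.11.15 with pandas 2.3.3 gave shares, ratios and exact permutation tests.

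The sample number gave the pairs of 14 dogs, and dog 031_032 was paired by elimination. The deviations of the 2 samples of a dog from their group means had a median correlation across genes of 0.60, the lowest was -0.11, 14 of 15 were above 0.1 and 9 of 15 dogs correlated best with their own partner. No 2 libraries of a group were copies (lowest chi-square per degree of freedom 59.3). Alternatives tried were a pseudocount of 0.1, no filter or a mean FPKM above 10, rescaling to TPM, to the sum outside the mitochondrial genome or by median-of-ratios factors, no trend, no block, label groups alone, and leaving out dogs. Splits by count agreement, dogs 025 and 036, dogs 029 and 038, and the row with the highest FPKM were chosen after seeing the data. The names of the genes of the T-cell list that DESeq2 called are not reported here.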

Additional observations from a re-analysis of the deposited data

Results flagged for a closer look

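Gaps within the label groups of 5 and 7 dogs were examined with Dixon's test in 48 sets of values, and in 4 sets 1 dog stood apart. Chance alone sets apart about 1 in 20 sets. MT-CO1 at the six-week timepoint was 3652 FPKM in B-Cell dog 029, against 7698 FPKM in the next lowest of the 7 B-Cell dogs. The log2 ratio of six-week to initial MT-CO1 was -1.17 in Unknown dog 025, against 0.15 in the next lowest Unknown dog. The same dog had a log2 ratio of -0.76 for the cytochrome c oxidase over complex I ratio, against 0.18 in the next lowest Unknown dog. MT-ND2 at the initial timepoint was 2922 FPKM in B-Cell dog 027, against 1591 FPKM in the next highest B-Cell dog.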

How the results depend on the processing

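In each of the 4 comparisons 0 of the 6 genes passed under every alternative run (31, 26, 26 and 25 of them). Of 648 single estimates under an alternative, 601 kept their sign and 47 changed it, none of them past the threshold. Many of the 648 could not change. A different filter, no trend or no block leaves the estimate of a gene as it is. Leaving out a dog labelled Unknown does the same for the comparisons of T-Cell with B-Cell dogs. The 601 therefore do not measure how stable the signs were. The fit without the dog as a block (no replicate block) called 0 of the 6 over time, so that the pairing of samples changed no call. This fit could not turn a sign. Each dog has a sample at both timepoints, and the estimates are then the same with and without the block.

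Signs over time turned by median-of-ratios scaling for MT-ND2 (0.052), by DESeq2 on counts for MT-ND2 (0.012) and MT-ATP6 (0.005), and in B-Cell dogs alone for MT-CO2 (0.10), MT-CYB (0.15), MT-ND2 (0.26), MT-ND4 (0.21) and MT-ATP6 (0.10). They also turned, in alternatives chosen after the data were seen, in the 6 dogs whose counts do not follow for MT-CO1 (0.037), MT-CO2 (0.11), MT-ND2 (0.034) and MT-ND4 (0.035), without dogs 025 and 036 for MT-CO1 (0.026) and MT-ND2 (0.068), and without dogs 029 and 038 for MT-ND2 (0.015) and MT-ATP6 (0.067). Leaving out 1 dog gave -0.11 (without dog 030) to 0.026 (without dog 036) for MT-ND2, -0.16 (030) to 0.005 (029) for MT-ATP6, -0.30 (030) to -0.12 (025) for MT-CO2, -0.23 (030) to -0.087 (025) for MT-CYB, -0.21 (030) to -0.064 (038) for MT-ND4 and -0.18 (024) to -0.057 (025) for MT-CO1.

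Between T-Cell and B-Cell dogs at the initial timepoint, MT-CO2 turned in the 9 dogs (-0.21) and without dogs 029 and 038 (-0.20), and MT-ATP6 without dogs 025 and 036 (0.32); leaving out 1 dog gave -0.15 to 0.48 for MT-CO2 and -0.41 to 0.32 for MT-ATP6. At the six-week timepoint MT-ND2 turned by median-of-ratios scaling (0.007) and without dogs 029 and 038 (0.003). Without dogs 025 and 036, MT-CO1 (0.22), MT-CO2 (0.029), MT-CYB (0.14), MT-ND2 (0.11) and MT-ND4 (0.004) turned, and leaving out 1 dog gave -0.93 to 0.22, -1.47 to 0.029, -0.68 to 0.14, -0.64 to 0.19 and -0.69 to 0.004 for these genes. The difference in change of MT-CO1 turned without dogs 025 and 036 (0.32), with -0.45 to 0.32 when 1 dog was left out. Dog 025 was labelled Unknown. Leaving out dogs 025 and 036 thus gives the same estimates between T-Cell and B-Cell dogs as leaving out dog 036 alone. The cause of the changes of sign was not tested.

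Counts over the whole table moved more. Over time 0 genes passed in limma, against 3054 without a filter on low values and 583 by DESeq2. At the initial timepoint 16 genes were higher and 33 lower in T-Cell dogs, against 89 and 62 after median-of-ratios scaling, 8 and 20 after TPM scaling, 15 in all in the 9 dogs, 13 without a filter, 76 above a mean FPKM of 10, 5 in B-Cell and T-Cell libraries alone, 1 without dogs 025 and 036, and 1 to 2403 when 1 dog was left out (highest without dog 038). At the six-week timepoint the count was 0 to 5 and for the difference in change 0 to 613 when 1 dog was left out. Rescaling to TPM moved the median of all genes by -0.14 log2 between T-Cell and B-Cell dogs at the six-week timepoint and by -0.17 for the difference in change, and the 6 genes stayed below 0 in both.

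The share of the FPKM sum had a median change of -0.36 percentage points, -0.44 with MT-ND3 and MT-ND6, -0.17 in read counts of 9 dogs and -0.47 without the row with the highest mean FPKM. With 3 T-Cell dogs, 1 dog sets an estimate by label. The p-values by label rest on a spread shared by the dogs of all 3 labels and adjusted by limma's trend over genes. They do not measure the spread between T-Cell dogs alone, and they hold for the sampled dogs only.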
